A study of Mus musculus with 288 samples.

Results

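The 92 genes described here encode the nuclear part of the mitochondrial respiratory chain and ATP synthase. They were chosen by name from the 24781 genes of the count table: names starting with Nduf, Uqcr, Atp5 or Cox4 to Cox8, and Sdha to Sdhd. Complex I took 46 of them, complex II 4, complex III 8, complex IV 18 and complex V 16. By role, 83 encode structural subunits and 9 encode complex I assembly factors or coupling factor B. Names ending in -ps, used for pseudogenes, were to be left out, and the table held none with these prefixes.

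Complexes I and II pass electrons from NADH and succinate to ubiquinone, complex III passes them on to cytochrome c and complex IV to oxygen. Complexes I, III and IV pump protons across the inner mitochondrial membrane, and complex V, the ATP synthase, uses the gradient to make ATP. Several subunits of complexes IV and V exist as isoforms from separate genes, of which some are typical of heart and skeletal muscle, lung or testis. In the lung epithelium, club cells secrete proteins and detoxify, and alveolar type 2 cells make surfactant, and both are known for abundant mitochondria. The subunits encoded by mitochondrial DNA were not analysed here.

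The data were counts of RNA in single cells sorted into wells from lungs of C57BL/6 mice, 4 months old, of the genotype Scgb1a1-CreER;Rosa26-mTmG. In these mice the promoter of Scgb1a1, the club cell secretoglobin gene, drives an inducible Cre recombinase, and recombination switches the fluorescent protein of the reporter. All sorted cells shared this genotype and a gate for lineage-labelled epithelial cells (Epcam+, CD45-, CD31-) with low CD24, and there was no untreated or other-genotype group. No label names the animal of a cell, so the cells count as 1 sample, and no test between animals was possible. Of 286 sorted wells, 227 held more than 2340 counts, which is 10 times the total of the higher of 2 negative control wells that held medium only. The kept wells were divided by their own counts: 63 had at least 1% of their total as Sftpc (surfactant protein C) and are called Sftpc wells, 74 had at least 1% as Scgb3a1 (an airway secretoglobin), and 90 had neither and are called other wells. No well met both limits, 1 well lay between 0.5% and 1% Sftpc, and for Scgb3a1 1 well lay between 0.5% and 1% and 9 between 1% and 2%.

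Levels are given in CPM, the usual scaling of a gene's counts to the total of the well or class, on which the 1.21% of all counts that respiratory chain genes took is 12148 CPM. Depth differed between the classes, with median totals of 3529 counts in Sftpc wells, 6940.5 in Scgb3a1 wells and 5406 in other wells (range over all kept wells 2384 to 15088). Sftpc defined its class, so the alveolar type 2 markers are summed without it. The 11 others summed to 70485 CPM in Sftpc wells, 6933 in Scgb3a1 wells and 13276 in other wells. Scgb1a1 took 4.49%, 22.8% and 30.5% of all counts in these classes. Of the other wells, 7 had ciliated-cell markers (a count of the ciliary regulator Foxj1 or at least 5 counts over 11 ciliated genes), as had 3 Scgb3a1 wells and no Sftpc well. The immune gene Ptprc and the endothelial gene Pecam1 were at 0 in all classes, but other genes of their lists were not. The 5 immune genes summed to 1, 1 and 5 counts in Sftpc, Scgb3a1 and other wells. The 4 endothelial genes summed to 3, 2 and 15 counts, of which Kdr held 13 in other wells.

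Respiratory chain genes made up 15296 of 1259118 counts in kept wells, or 1.21%. A count was seen for 87 of the 92 genes, 79 of them with at least 20 counts and 8 with 1 to 19. The 5 without a count were Cox4i2, Cox7b2, Cox8b, Cox8c and Ndufa4l2. The 3 counts put in for 0 in ratios would stand at 2.38 CPM over all kept wells, which is a floor value and not an interval limit. Each negative control held 1 count of these genes, Sdhc in one and Cox5b in the other. The 59 sorted wells under the limit held 9943 CPM (95% interval 9167 to 10768). All intervals are at 95% and cover counting error only. Wells varied more than counting gives, and it is not stated whether molecular barcodes were collapsed, so they are too narrow to stand for the spread between wells.

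The summed level was similar in the 3 classes, and the differences were a small fraction of the level. In Sftpc wells the genes summed to 5516, 12012 and 16807 CPM in the lowest, median and highest well. In Scgb3a1 wells these values were 6581, 11147 and 16171 CPM, and in other wells 6214, 12892 and 22603 CPM. The ranges overlapped over most of their width, and the other wells reached highest. Pooled over wells, the levels were 12074 CPM (11639 to 12521) in Sftpc wells, 11331 CPM (11042 to 11626) in Scgb3a1 wells and 13013 CPM (12700 to 13332) in other wells. Scgb3a1 wells were thus at 0.871 of the other wells (0.840 to 0.902), and this ratio was below 1 in 21 of 21 alternative settings of scaling, wells or genes. Sftpc wells were at 0.928 of the other wells (0.888 to 0.969), below 1 in 20 of 21 settings. The ratio of Sftpc wells to Scgb3a1 wells, 1.07 (1.02 to 1.11), was on the other side of 1 in 4 of 21 settings, so no order between them is given. The settings share most wells, and some could not change a ratio. Leaving out wells at both limits removed none, and leaving out the top well of the class not compared changed nothing. These tallies are therefore not independent checks.

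**Figure D1:**
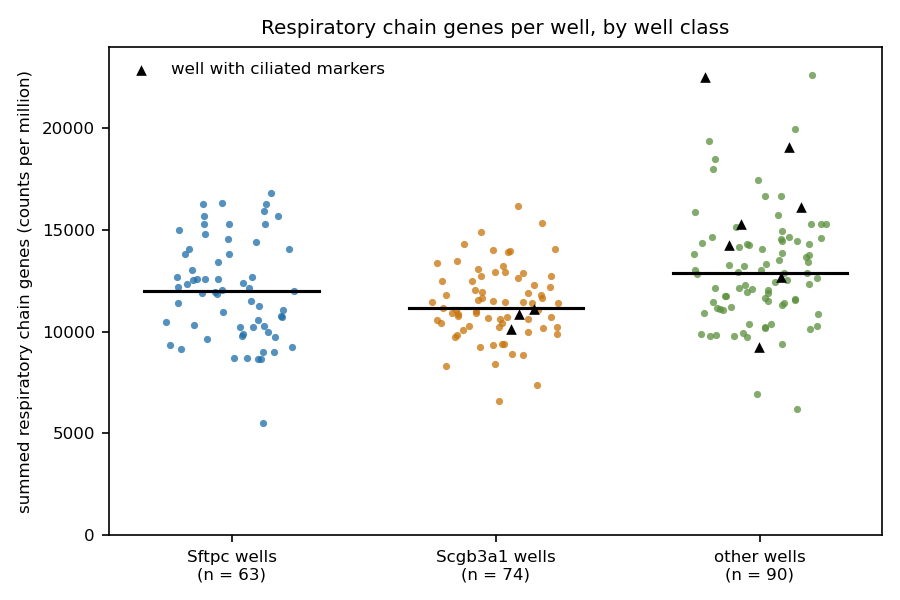
Summed level of the 92 respiratory chain genes in each kept well (vertical axis, CPM of the well's total), by well class (horizontal axis). Points are wells, black lines the class medians (12012, 11147 and 12892 CPM), and black triangles the 10 wells with ciliated markers. The classes overlap, and the wells above the highest Sftpc well (16807 CPM) are all other wells.

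The spread between wells exceeded what counting gives. The variance over wells was 1.95 times the counting variance in Sftpc wells, 1.78 times in Scgb3a1 wells and 3.48 times in other wells. On the total without secretoglobin, surfactant and Rn45s (ribosomal RNA) counts, these values were 1.91, 1.93 and 2.12. Of the 22 wells with the highest summed level, 13 were other wells, 7 Sftpc wells and 2 Scgb3a1 wells, and 3 of the 22 had ciliated markers. The 10 wells with ciliated markers ranged from 9249.9 to 22524 CPM with a median of 13481 CPM. Without them the other wells stood at 12866 CPM and the Scgb3a1 wells at a log2 ratio of -0.18 to them, against -0.20 with them. The number of respiratory chain genes with a count followed depth. It was a median of 29, 44 and 41 genes per well in Sftpc, Scgb3a1 and other wells, and 27.5, 27.5 and 29 when each well was thinned to 3151 counts, a depth reached by 44, 74 and 86 wells.

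A CPM is a share, so the level moves with the secretory transcripts that fill the rest of the library. Secretoglobin, surfactant and Rn45s (ribosomal RNA) counts took 35.9% of all counts in Sftpc wells, 41.8% in Scgb3a1 wells and 42.7% in other wells. On the total without them, the respiratory chain genes stood at 18849, 19465 and 22713 CPM, and the other wells were again highest. The log2 ratio of Sftpc to other wells was then -0.27 instead of -0.11, and that of Scgb3a1 to other wells -0.22 instead of -0.20. With trimmed-mean (TMM) scaling the 2 ratios were -0.43 and -0.14. Scaling moves all genes alike, so the members were also read against the median of all measured genes. They lay 0.27 (log2) below it in Sftpc against other wells, 0.20 below it in Scgb3a1 against other wells and 0.18 below it in Sftpc against Scgb3a1 wells, and these distances are the same under the 4 other scalings by construction. The distances did move with the count minimum of a measured gene where Sftpc wells were compared. At a minimum of 50 counts, members minus all genes gave -0.18, -0.18 and -0.12 in the 3 comparisons. At a minimum of 10 it gave -0.32, -0.20 and -0.23, and with no minimum -0.49, -0.20 and -0.49. At the main minimum, the distances also moved with the wells used. In wells of at least 5000 counts, members minus all genes gave -0.15, -0.15 and 0.03. Within the 3 successive sets of 96 columns, Sftpc against Scgb3a1 wells gave 0.08, -0.06 and -0.33. The comparisons with other wells stayed below 0 in each set. The median of all genes itself was 0.18, -0.02 and 0.20 in the 3 comparisons on the full total, and -0.14, 0.03 and -0.18 with TMM.

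Within the other wells, the summed level ran against the Scgb1a1 share (Pearson r = -0.51, Spearman rho = -0.56, n = 90 wells). Both are shares of one total, and on the total without secretory and Rn45s counts r was 0.22. The complexes moved together weakly: between pairs of complexes I, III, IV and V, r ran from 0.25 to 0.40 on the full total in other wells, and from 0.05 to 0.24 on the reduced total. In Sftpc wells it was 0.02 to 0.17 and in Scgb3a1 wells 0.03 to 0.34 on the full total. These wells held medians of 42, 77.5 and 72 counts of these genes in Sftpc, Scgb3a1 and other wells, and each pair shares a total.

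The table has 288 columns in 3 successive sets of 96, and no label says what the sets are. The classes were unevenly spread over them: Sftpc wells 6, 17 and 40, Scgb3a1 wells 38, 31 and 5, other wells 38, 33 and 19. Scgb3a1 wells stood at 11287, 11377 and 11292 CPM in the 3 sets. The other wells stood at 12633, 12285 and 15792 CPM, and in the third set they had less Scgb1a1 (18.8% against 32.8% and 33.0%) and 5 of the 7 ciliated-marker wells. On the total without secretory and Rn45s counts, they were at 23006, 22441 and 22724 CPM. Within the sets, the log2 ratio of Scgb3a1 to other wells was -0.16, -0.11 and -0.48, and that of Sftpc to other wells 0.05, -0.13 and -0.37. The direction of the first held in each set. That of the second did not hold in the first set, which had 6 Sftpc wells.

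**Figure D2:**
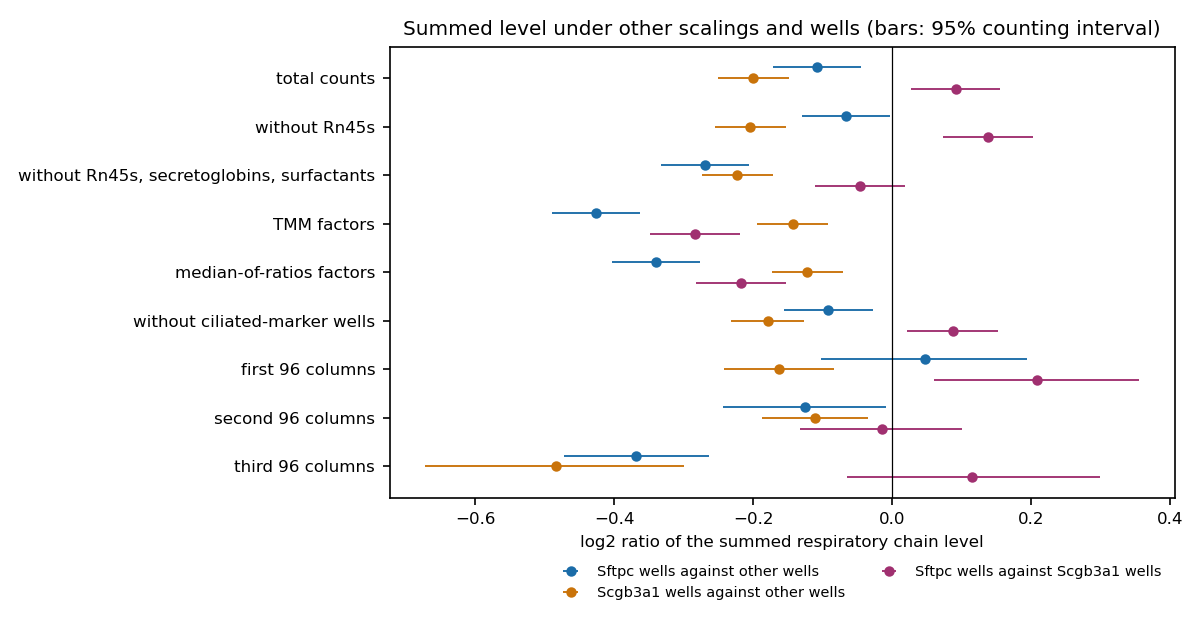
Log2 ratio of the summed respiratory chain level (horizontal axis) for the 3 comparisons under 5 scalings, without the ciliated-marker wells, and within each set of 96 columns (vertical axis). Points are ratios of pooled CPM and bars 95% counting intervals. Scgb3a1 wells lie below the other wells in every row, while the ratio of Sftpc to Scgb3a1 wells falls on either side of 0.

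By complex, the 5 sums kept nearly the same proportions in the 3 classes, and complex III differed most. Complex I, the NADH dehydrogenase, stood at 4184 CPM in Sftpc wells, 3718 in Scgb3a1 wells and 4402 in other wells. Complex II, the succinate dehydrogenase, stood at 283, 308 and 338 CPM. Complex III, the cytochrome c reductase, stood at 1201 CPM in Sftpc wells, 1389 in Scgb3a1 wells and 1623 in other wells. Its share of all respiratory chain counts was 9.94% in Sftpc wells against 12.3% and 12.5%. Complex IV, the cytochrome c oxidase, stood at 2817, 2570.2 and 2961 CPM, and complex V at 3589.9, 3346 and 3689 CPM.

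Complex III in Sftpc wells was at 0.740 of the other wells (0.645 to 0.847), while complex I was at 0.951 (0.881 to 1.02), complex IV at 0.951 (0.868 to 1.04) and complex V at 0.973 (0.897 to 1.06). The lower sum of complex III came with its small subunits (Uqcr10, Uqcr11, Uqcrb, Uqcrh, Uqcrq), which were at 0.724 (0.618 to 0.844). The complex III ratio was below 1 in 19 of 20 settings, some of which left the compared wells unchanged, and the exception was the first column set. The Rieske iron-sulfur protein Uqcrfs1 and the core proteins Uqcrc1 and Uqcrc2 summed to 0.799 of the other wells in Sftpc wells (0.594 to 1.06) and to 0.649 in Scgb3a1 wells (0.509 to 0.825). Between Sftpc and Scgb3a1 wells their ratio was 1.23 (0.898 to 1.68), and the interval holds 1. The small subunits in Scgb3a1 wells were at 0.913 of the other wells (0.815 to 1.02). Complex I assembly factors, which build the complex and are not part of it, were sparse. They summed to 70.6 CPM in Sftpc wells, 119 in Scgb3a1 wells and 158 in other wells, and the ratio of Sftpc to other wells was 0.446 (0.248 to 0.760) from 17 and 80 counts.

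**Figure D3:**
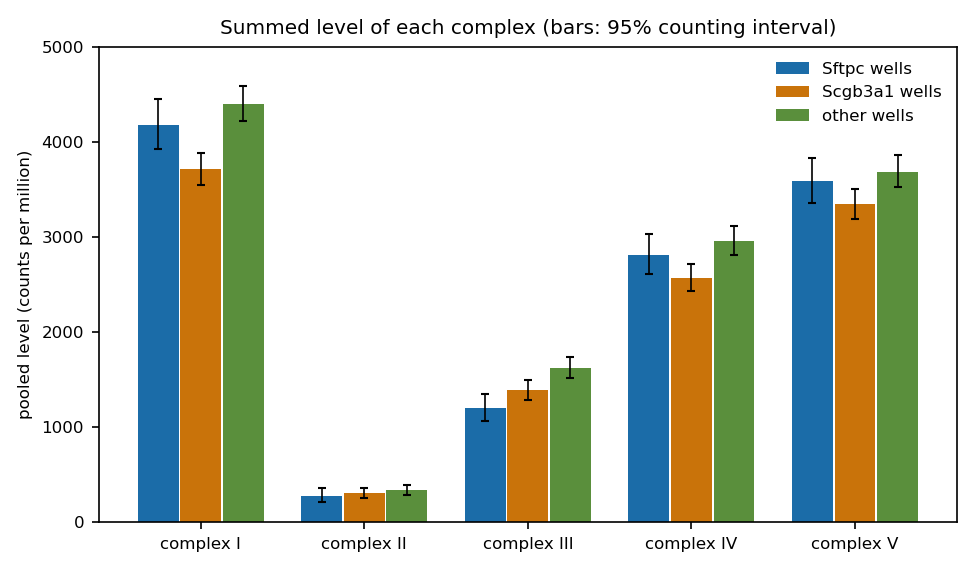
Pooled level of complexes I to V (horizontal axis) in CPM (vertical axis, from 0), with 1 bar per well class and 95% counting intervals. Complex III is lowest in Sftpc wells (1201 CPM against 1389 and 1623), and the bars of complexes I, IV and V are lowest in Scgb3a1 wells.

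Among single genes, levels were compared per kilobase of the longest annotated transcript. Reverse transcription started at the poly(A) tail, so counts need not scale with length, and this order is a rough one. Cox8a, a small complex IV subunit, led with 796 CPM per kilobase. The complex I membrane subunit Ndufa1 followed at 629, the c ring gene Atp5g2 at 574, the small complex III subunit Uqcr10 at 515, and Cox6b1, Cox4i1 and Cox6a1 of complex IV at 484, 483 and 430.4. The catalytic beta subunit of the ATP synthase, Atp5b, stood at 189 CPM per kilobase. The 4 complex II genes were low, at 56.1 for the iron-sulfur subunit Sdhb, 46.5 and 36.3 for the membrane anchors Sdhd and Sdhc, and 25.5 for the flavoprotein Sdha.

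These abundant genes were close to even across classes. Cox8a stood at 432 CPM in Sftpc wells, 382 in Scgb3a1 wells and 497 in other wells, and Cox4i1 at 361, 337 and 406 CPM. Cox6c, another complex IV subunit, stood at 386, 294 and 380.0 CPM. For the ATP synthase, Atp5b was at 374, 298 and 424 CPM, Atp5g2 at 407, 452 and 424 CPM, and the epsilon subunit Atp5e at 374, 263 and 332.5 CPM. Of the complex I genes with most counts, Ndufa1 stood at 216, 249 and 301 CPM, Ndufa7 at 266, 214 and 273 CPM and Ndufa3 at 253, 216 and 241 CPM. None of these reached a 2-fold difference between any pair of classes.

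A gene was called higher or lower between 2 classes by 3 criteria: at least 20 counts in both classes together, which made it a measured gene, a ratio of pooled CPM of 2-fold or more, and an interval of that ratio without 1. This is a rule of size and counting error in 1 sample, not a test. For Sftpc against other wells, 76 of the 92 genes were measured. None was called higher, where 14.6% of all measured genes were, and 3 were called lower (3.95% of the 76), where 7.34% of all measured genes were. The 3 were Sdhd, Ndufs6 and Uqcr10. The median log2 ratio of the 76 was -0.10, against 0.18 for all 3854 measured genes.

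Sdhd, a membrane anchor of complex II (chromosome 9, 50596357 to 50603812, minus strand, GRCm38), had a count in 5 of 63 Sftpc wells, 21 of 74 Scgb3a1 wells and 26 of 90 other wells. The median well was at 0 in each class, and the highest wells held 341, 426 and 543 CPM. Pooled, it stood at 20.8 CPM (6.75 to 48.5), 58.5 CPM (39.4 to 83.5) and 73.2 CPM (51.6 to 101), from 5, 30 and 37 counts. It was called lower in Sftpc wells than in other wells, by 3.52-fold (log2 ratio -1.82, interval -3.52 to -0.47), and than in Scgb3a1 wells, by 2.81-fold. Sdhc, the other anchor, was not called and stood at 141, 115 and 103 CPM.

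Ndufs6, a zinc-binding accessory subunit of complex I (chromosome 13, 73319838 to 73328542, minus strand), had a count in 10 Sftpc wells (15.9%), 40 Scgb3a1 wells (54.1%) and 46 other wells (51.1%). The median wells were at 0, 114 and 119 CPM and the highest at 458, 423 and 905 CPM. In wells thinned to 3151 counts it was found in 13.6%, 28.4% and 34.9%. Pooled, it stood at 54.0 CPM (28.8 to 92.4), 117 CPM (89.2 to 150) and 127 CPM (97.5 to 162), and it was called lower in Sftpc wells than in other wells (log2 ratio -1.23, -2.21 to -0.35) and than in Scgb3a1 wells (-1.11, -2.10 to -0.23). Ndufs6 overlaps Mrpl36 on the opposite strand, and counting by strand is not stated. Mrpl36 held 43 counts.

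Uqcr10, a small subunit of complex III (chromosome 11, 4701973 to 4704342, minus strand), was the most abundant of the 3. It had a count in 25 Sftpc wells (39.7%), 64 Scgb3a1 wells (86.5%) and 71 other wells (78.9%), and in 36.4%, 66.2% and 60.5% of thinned wells. Median wells were at 0, 224 and 282 CPM, and the highest at 869, 651 and 1124 CPM. Pooled, it stood at 149.6 CPM (105 to 207), 261 CPM (219 to 309) and 319 CPM (271 to 372), and it was called lower in Sftpc than in other wells by 2.13-fold (log2 ratio -1.09, -1.65 to -0.56). Against Scgb3a1 wells its log2 ratio was -0.80 (-1.38 to -0.26), under the 2-fold limit.

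The low values of Ndufs6 and Uqcr10 came from the Sftpc wells of the second and the third column set. Uqcr10 stood at 417 CPM in the 6 Sftpc wells of the first set, where each well had a count, and at 119 and 100.3 CPM in those of the second and the third. In other wells it stood at 335, 295 and 341 CPM. Ndufs6 stood at 179, 29.6 and 35.8 CPM in the Sftpc wells of the 3 sets and at 135, 95.3 and 188 CPM in other wells. Within the first set the log2 ratios to other wells were 0.32 for Uqcr10 and 0.40 for Ndufs6. The Sftpc wells of that set held more Scgb1a1 (16.0% of counts, against 3.45% and 2.24%) and were deeper (median total 5799.5 against 3818 and 3272.5), and the part of either in the result was not tested. Sdhd was lower in Sftpc wells in each set, at log2 ratios of -0.89, -1.99 and -2.83 from 1, 1 and 3 counts. Without the third set, none of the 3 genes was called and the complex I accessory gene Ndufa12 alone was. The log2 ratios were then -1.53 for Sdhd and -0.53 for each of the other two.

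Promoters of the 3 genes are shown beside that of Atp5g2, which did not differ between classes (log2 ratio of Sftpc to other wells -0.06), because respiratory chain promoters are known for sites of the factor NRF1. Each line gives the 250 bases before the RefSeq start (GRCm38.p6), 5′ to 3′ on the gene's strand, with matches to the NRF1 motif (GCGCA, any base, GCGC), on either strand, in capitals.
Sdhd, chr9:50603850-50604099, minus strand: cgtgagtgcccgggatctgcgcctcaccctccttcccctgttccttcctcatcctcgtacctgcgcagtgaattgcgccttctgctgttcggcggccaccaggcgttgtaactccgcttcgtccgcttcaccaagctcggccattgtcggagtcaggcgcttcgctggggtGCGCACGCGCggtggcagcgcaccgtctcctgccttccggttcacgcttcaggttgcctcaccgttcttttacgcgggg
Ndufs6, chr13:73328483-73328732, minus strand: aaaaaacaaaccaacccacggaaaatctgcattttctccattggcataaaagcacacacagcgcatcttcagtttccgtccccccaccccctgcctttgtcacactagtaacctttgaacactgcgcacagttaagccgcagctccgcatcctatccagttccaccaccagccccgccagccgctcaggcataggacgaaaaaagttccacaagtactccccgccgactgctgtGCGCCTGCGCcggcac
Uqcr10, chr11:4704345-4704594, minus strand: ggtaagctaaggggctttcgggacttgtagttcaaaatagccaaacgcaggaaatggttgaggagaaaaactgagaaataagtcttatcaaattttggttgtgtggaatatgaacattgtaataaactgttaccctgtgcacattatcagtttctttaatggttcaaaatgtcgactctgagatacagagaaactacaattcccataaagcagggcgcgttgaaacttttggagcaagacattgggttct
Atp5g2, chr15:102671048-102671297, minus strand: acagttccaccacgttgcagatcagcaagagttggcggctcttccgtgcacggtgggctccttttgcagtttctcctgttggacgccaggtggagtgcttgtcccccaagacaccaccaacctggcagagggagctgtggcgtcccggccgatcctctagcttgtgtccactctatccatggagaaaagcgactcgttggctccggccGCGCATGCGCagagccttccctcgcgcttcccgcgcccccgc

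The matches in Sdhd, Ndufs6 and Atp5g2 begin 79, 16 and 42 bases before the start, and these letters do not occur in the Uqcr10 window. RefSeq promoters of 300 bases (250 before and 50 after the start) were matched for 76 of the 92 genes. The NRF1 motif was in 19 of them (25%), against 5.19% of all 27025 genes with a promoter and 7.17% of the coding ones. The YY1 motif AAGATGGC was in 11 (14.5%, against 3.19% of all genes), and the ETS motif CCGGAAGT in 5 (6.58%, against 4.31%). Both strands were searched, and motifs may overlap. Complex V had the NRF1 motif in 6 of 15 promoters and complex IV in 1 of 13.

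For Scgb3a1 against other wells, 77 genes were measured and none was called, where 6.77% of all measured genes were called higher and 7.12% lower. Their log2 ratios leaned to one side, with 56 of the 77 below 0 and a median of -0.22, against -0.02 for all 4536 measured genes. At a limit of 1.5-fold 6 genes were called lower (7.79% of the 77, against 9.81% of all measured genes) and none higher (against 9.28%). They were Ndufa4, Ndufb2, Ndufb3, Ndufc2, Uqcrc2 and Uqcrfs1. Ndufc2, an accessory subunit of complex I, stood at 87.7 CPM in Scgb3a1 wells and 162 in other wells (log2 ratio -0.89, -1.45 to -0.35). Ndufb2, another accessory subunit, stood at 62.4 and 115 CPM (-0.88, -1.55 to -0.23). Uqcrfs1 stood at 52.6 and 93.0 CPM, Ndufb3 at 85.7 and 139 CPM, and Uqcrc2 at 89.6 and 144 CPM. The highest log2 ratios, of Ndufb4, Cox5a, Ndufb7, Atp5c1 and Ndufb5, were small. Ndufb4 stood at 140.3 CPM in Scgb3a1 wells and 117 in other wells, and the gamma subunit Atp5c1 at 134 and 117 CPM.

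For Sftpc against Scgb3a1 wells, 74 genes were measured. Of these 3 were called higher in Sftpc wells (4.05%, against 17.3% of all measured genes) and 2 lower (2.70%, against 10.5%). The median log2 ratio was 0.02, against 0.20 for all 3834 measured genes. The lower genes were Sdhd and Ndufs6. Neither was called in wells thinned to equal depth, in wells of at least 5000 counts, within any column set or without the third set. Within the third set Sdhd had 3 counts in 40 Sftpc wells and 0 in 5 Scgb3a1 wells. The higher genes were Ndufb3, Ndufb10 and Ndufc2, accessory subunits in the membrane arm of complex I. Ndufb3 had a count in 27 Sftpc wells (42.9%) and 33 Scgb3a1 wells (44.6%), and in 43.2% and 25.7% of thinned wells. It stood at 187 CPM (136 to 250) and 85.7 CPM (62.3 to 115), a ratio of 2.18 (1.41 to 3.38). Ndufc2 stood at 183 CPM (133 to 245) and 87.7 CPM (64.0 to 117), a ratio of 2.08 (1.34 to 3.23), with median wells of 211 and 0 CPM. Ndufb10 stood at 99.7 CPM (63.9 to 148) and 44.8 CPM (28.4 to 67.2), a ratio of 2.22 (1.20 to 4.13). The annotation places the pseudogene Gm16053 within Ndufc2, and copies were not told apart.

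These 3 higher calls lay near the limit. Without the Sftpc well of most respiratory chain counts (148 counts, 2.07% Sftpc and 20.5% Scgb1a1), the log2 ratios of Ndufb3, Ndufb10 and Ndufc2 were 0.97, 0.94 and 0.94, and none was called. With TMM scaling they were 0.75, 0.78 and 0.68, again without a call. Ndufb10 was at -0.43 within the second column set, and at 0.10 in wells thinned to equal depth. Ndufb3 was above 0 within each set, at 1.35, 1.31 and 2.14. Against other wells, the highest in Sftpc wells were Ndufb10, Ndufb11, Ndufb5, Atp5g1 and Sdhc, at log2 ratios of 0.61, 0.61, 0.58, 0.57 and 0.46. Ndufb11, a further membrane arm subunit, stood at 253 CPM in Sftpc wells and 166 in other wells, and it alone passed a limit of 1.5-fold, where 17.6% of all measured genes did. At that limit 4 were lower (5.26% of the 76, against 8.54% of all measured genes), the 3 called genes and Atp5j, coupling factor 6 of the ATP synthase, at 158 against 257 CPM.

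**Figure D4:**
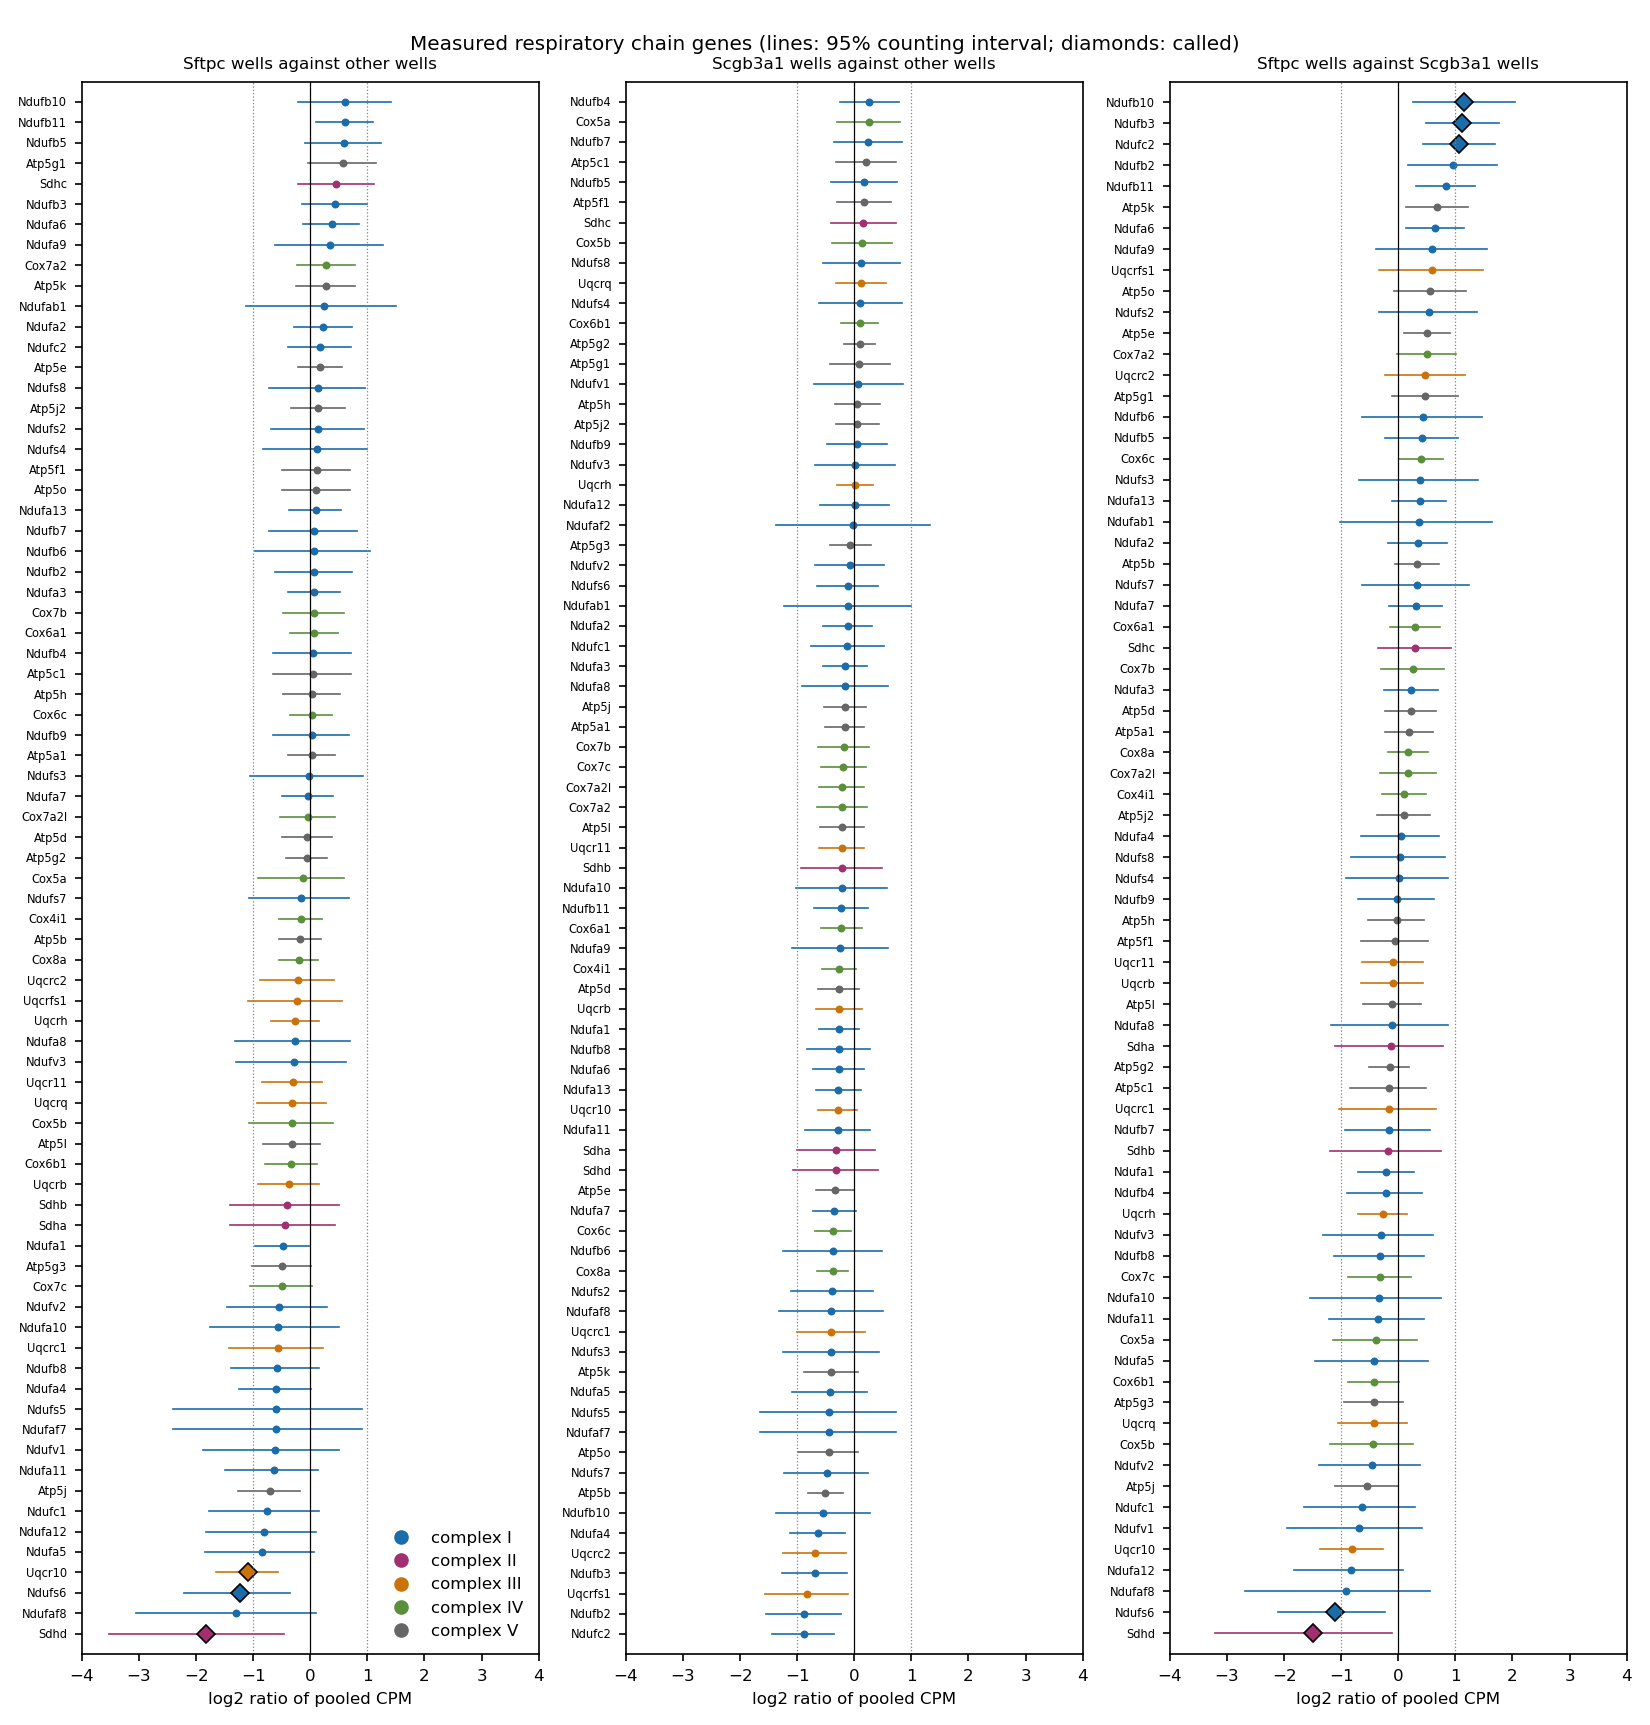
Log2 ratio of pooled CPM (horizontal axes) for each measured respiratory chain gene (vertical axes, ordered by ratio in each panel) in the 3 comparisons, coloured by complex, with 95% counting intervals. Diamonds mark called genes and dotted lines 2-fold. Sdhd, Ndufs6 and Uqcr10 are called lower in the left panel, no gene is called in the middle one, and 3 genes are called higher and 2 lower in the right one.

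The isoform families were carried by the broadly expressed genes. Cox4i1 held 465 counts and its lung and hypoxia-linked isoform Cox4i2 none. The same held of Cox7b against Cox7b2, and of Cox8a against Cox8b and Cox8c. Cox6b1 held 377 counts and Cox6b2, known from testis, 20. Cox7a2 and Cox7a2l, the latter a supercomplex factor, held 233 and 278 counts, and the muscle isoform Cox7a1 held 6. Ndufa4, named for complex I and now known as a complex IV subunit, held 181 counts and Ndufa4l2 none. Both were summed here with complex I, by name. The 3 c ring genes encode the same mature protein, and Atp5g2 led in each class with 407, 452 and 424 CPM. Atp5g1 stood at 179, 129 and 121 CPM, and Atp5g3 at 183, 246 and 257 CPM.

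Cox6a2, the heart and muscle isoform of complex IV subunit 6A (chromosome 7, 128205435 to 128206387, minus strand), was found in Sftpc wells only among kept wells. It had 16 counts in 10 of 63 Sftpc wells (15.9%, exact Clopper-Pearson interval 7.88 to 27.3%) and 0 in the 164 kept wells of the other classes, for which the exact upper limit is 2.22% of wells with a count. No well held more than 3 counts. Pooled, it stood at 66.5 CPM (38.0 to 108). With 3 counts put in for 0, this was 11.2-fold above other wells and 11.4-fold above Scgb3a1 wells. These are point ratios that leave out the counting error of the 16 counts, not lower limits. With 16 counts it was under the minimum of 20 and so not a measured gene, and it was called higher at a minimum of 10. The pattern was noticed after the values were seen.

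Among the wells under the limit on totals, which entered no comparison, Cox6a2 had 1 count in each of 3 of the 27 with at least 1% Sftpc (11.1%, 2.35 to 29.2%) and none in the 32 others. For these 32 the exact upper limit is 10.9% of wells, so a difference was not detectable at this depth. Among kept Sftpc wells it was found in 0 of 6, 2 of 17 and 8 of 40 in the 3 column sets, and in no well of the other classes in any set. Of the 10 wells 6 also held a count of the common isoform Cox6a1, which stood at 295, 239.7 and 281 CPM in the 3 classes. At equal depth Cox6a2 was found in 13.6% of Sftpc wells. The gene lies inside the span of Itgad on the opposite strand, and Itgad had 0 counts in kept wells.

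**Figure D5:**
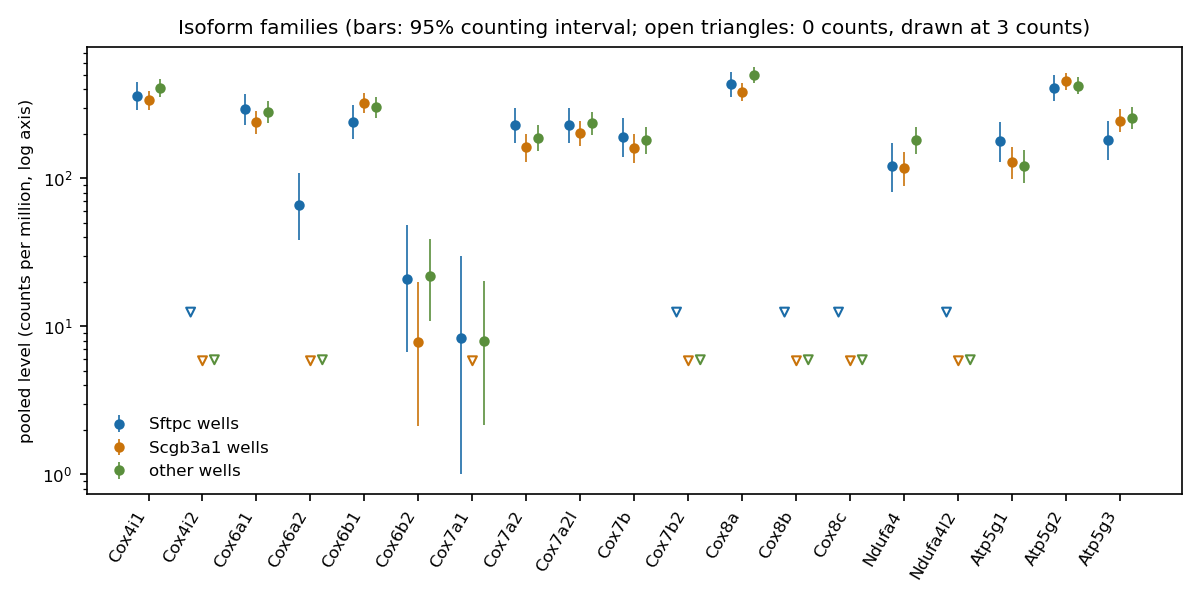
Pooled level (vertical axis, CPM, log axis) of the members of 8 isoform families (horizontal axis) in the 3 well classes, with 95% counting intervals. Open triangles stand for 0 counts and are drawn at the level of 3 counts. Cox6a2 has a point in Sftpc wells alone, at 66.5 CPM.

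Other genes of mitochondrial energy metabolism were counted in the same way. All calls in the lists from here on are to be read beside the shares of all measured genes. For Sftpc against other wells these shares were 14.6% higher and 7.34% lower, and for Scgb3a1 against other wells 6.77% and 7.12%. For Sftpc against Scgb3a1 wells they were 17.3% and 10.5%. Calls near these shares say nothing particular about a list. Of respiratory chain genes outside the name rule, such as cytochrome c and further assembly factors, 14 were measured for Sftpc against other wells and 1 was called, Higd2a, a complex IV assembly factor, lower at 54.0 against 119 CPM. Against Scgb3a1 wells 3 of 15 were called lower, Higd2a, Uqcc2 (a complex III assembly factor) and Tmem70 (an ATP synthase assembly factor). For Scgb3a1 against other wells 1 of 16 was called, Uqcc2, and it was higher. Of 16 measured genes of the citric acid cycle and pyruvate dehydrogenase, none was called for Sftpc against other wells. In Scgb3a1 wells 1 of 16, the pyruvate carboxylase gene Pcx, was lower than in other wells at 74.0 against 152 CPM.

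For Sftpc against Scgb3a1 wells, 4 of 13 beta oxidation genes were called higher and none lower, where 17.3% of all measured genes were called higher and 10.5% lower. They were Echs1, Acaa2, Eci1 and Decr1, all mitochondrial enzymes of fatty acid breakdown. Decr1 stood at 62.3 CPM in Sftpc and 19.5 in Scgb3a1 wells, and the list's median log2 ratio was 0.45 against 0.20 for all measured genes. For Sftpc against other wells none of 12 was called, and for Scgb3a1 against other wells 1 of 13, Cpt1a, the carnitine transferase of the outer membrane, was higher at 33.1 against 11.9 CPM. The carnitine carrier Slc25a20 was called higher in Sftpc wells against both classes, at 74.8 CPM against 27.3 in Scgb3a1 and 23.8 in other wells. It belongs to a list of mitochondrial carriers and outer membrane channels that was not called more often than all genes. Against other wells 2 of 20 were higher and 2 lower, where 14.6% and 7.34% of all measured genes were. Against Scgb3a1 wells 3 of 20 were higher, where 17.3% of all measured genes were, and none was lower. Of 11 glycolysis genes, Ldhb, a lactate dehydrogenase subunit, was lower in Sftpc than in other wells at 220.2 against 968 CPM. The lactate transporter Slc16a1 was higher at 99.7 against 31.7 CPM. For Scgb3a1 against other wells 2 of 15 were lower, Ldhb at 399 CPM and the hexokinase gene Hk2 at 19.5 against 43.5 CPM. For Sftpc against Scgb3a1 wells 2 of 14 were higher (Hk2 and Slc16a1) and 2 lower (the pyruvate kinase gene Pkm and the glucose transporter gene Slc2a1).

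Of 84 measured genes of the cytosolic ribosome, none was called for Sftpc against other wells, and 1 for Scgb3a1 against other wells, Rpl22l1. In the latter comparison 76 of the 84 log2 ratios were below 0, with a median of -0.18 and sums of 67851 and 76869.6 CPM, so the ribosomal genes leaned the same way as the respiratory chain genes. For Sftpc against Scgb3a1 wells 2 of 83 were called higher, Rpl22l1 and Rps19. The mitochondrial ribosome had 2 genes higher and 1 lower of 36 for Sftpc against other wells. It had 3 higher and 3 lower of 51 for Scgb3a1 against other wells, and 1 higher and 1 lower of 39 for Sftpc against Scgb3a1 wells. Of 8 measured mitochondrial antioxidant genes, the superoxide dismutase gene Sod2 was lower in Sftpc than in other wells, at 91.4 against 184 CPM. The regulators of mitochondrial biogenesis were mostly under the minimum, with 2 of 15 measured for Sftpc against other wells, and gave no call there.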

How the data were processed

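Single-cell RNA was measured in 286 sorted wells and 2 medium controls. The authors deposited raw whole-number counts for each gene symbol in each well. The submitters' processing notes name STAR, without a version, and mm10. Not given in the sources used here: annotation, counting tool, strand use and barcode collapsing. Wells above 2340 counts were kept, and no doublet caller was run. Counts were pooled by class and scaled to CPM with exact Poisson intervals, and ratios had exact conditional binomial intervals (numpy 2.4.6, scipy 1.17.1, pandas 2.3.3). A class at 0 was given 3 counts. The call rule was tried on simulated counts with counting error only. These lack the extra spread between wells seen here, so the rule's behaviour at that spread was not tested. TMM factors came from edgeR 4.0.16, used for scaling only. Coordinates are from GENCODE M21 (GRCm38), where 40 of the 92 genes overlap another annotated gene, 23 of them one with a count. No 2 wells held identical counts. The genes named were those called, the 5 highest and 5 lowest per comparison, the 3 of most counts per complex, isoform families and complex II. The members and lists were chosen with earlier results of these data known.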

Additional observations from a re-analysis of the deposited data

How the results depend on the processing

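Values below are for Sftpc against other wells, Scgb3a1 against other wells, and Sftpc against Scgb3a1 wells, called the first, the second and the third comparison. In the main analysis the summed log2 ratios were -0.11, -0.20 and 0.09, the members' medians -0.10, -0.22 and 0.02, and the calls 0 higher and 3 lower, 0 and 0, and 3 and 2. Settings not named for a comparison left these values inside the main interval, medians within 0.1, or counts within 1.5 times, and the cause of the changes was not tested. For calls only the numbers were compared, so the same number can stand for other genes.

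On the total without Rn45s, secretoglobins and surfactant genes, the first comparison had a sum of -0.27, a median of -0.26 and 5 lower, and the third a sum of -0.046, a median of -0.12 and 1 higher. With TMM factors the first had -0.43, -0.41 and 8 lower, the second a sum of -0.14, and the third -0.28, -0.36, 0 higher and 5 lower. With median-of-ratios factors the first had -0.34, -0.33 and 6 lower, the second a sum of -0.12, and the third -0.22, -0.29, 0 higher and 4 lower. The share of all measured genes called moved with these scalings too. In their order, it was 8.95%, 11.0% and 9.63% lower in the first comparison. In the third it was 12.1%, 16.3% and 15.0% lower and 14.6%, 11.2% and 12.3% higher. Thinned to equal depth, the first had 5 lower and the second 2 lower. The third had a sum of 0.014, a median of -0.12 and 1 lower (Uqcr10). Of all measured genes, 8.98%, 6.94% and 11.3% were lower at equal depth in the 3 comparisons. In wells of at least 5000 counts the first had a sum of -0.020, 2 higher (Atp5g1 and Ndufb3) and 0 lower. The third had 5 higher and 1 lower (Cox6b1). All measured genes were then 7.70% higher and 2.90% lower in the first, and 8.99% and 4.89% in the third. Count minimums of 10 and none each gave 1 higher (Cox6a2) in the first, and one of 50 gave 1 lower in the third. The shares of all measured genes were 12.0% and 7.42% higher in the first, and 14.5% lower in the third. At 1.5-fold the first had 1 higher, the second 6 lower and the third 7 higher, where the shares of all measured genes were 17.6%, 9.81% and 20.5%. Without the well of most respiratory chain counts in each class, the third had 0 higher and 1 lower, against 17.5% and 10.6% of all measured genes.

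Within the first column set the first comparison had a sum of 0.047, 2 higher (Cox7a2 and Ndufb3) and 0 lower. The second had 2 lower, and the third a sum of 0.21 and 1 lower (Cox6b1). Within the second set the first had 1 higher (Sdhc), and the second a sum of -0.11, a median of -0.084 and 2 lower. The third had a sum of -0.015 and 1 lower (Cox5a). Within the third set the first had -0.37, -0.35 and 5 lower, the second -0.48, -0.37 and 3 lower, and the third 1 higher and 0 lower. In the 3 sets, 4.45%, 8.54% and 12.2% of all measured genes were lower in the first comparison. In the second 5.43%, 6.47% and 11.2% were lower, and in the third 6.34%, 12.1% and 6.52%. Higher in the first were 8.05%, 15.9% and 12.3%, and in the third 8.46%, 14.7% and 10.5%. Among called genes, Ndufs6 and Uqcr10 were at 0.40 and 0.32 within the first set in the first comparison and Ndufs6 at 0.32 in the third, Ndufb10 was at -0.43 within the second set, and Ndufc2 at -0.050 within the third set. Added after the data were seen, leaving out the third set gave 1 lower (Ndufa12) in the first and a sum of -0.14 with 1 lower (Ndufc2) in the second. In the third the 2 lower genes were then Cox5a and Ndufa12, not Sdhd and Ndufs6. Of all measured genes, 5.72%, 5.93% and 8.79% were then lower in the 3 comparisons. Leaving out the Sftpc well of most respiratory chain counts gave 0 higher in the third, against 17.7% of all measured genes.

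No paired analysis was possible because cells and controls share replicate numbers only as names and no result comes from a test. Depth limits the assembly factors, Cox6a2 and the regulators, whose ratios rest on few counts. Wells are not animals, and no difference here has a replicate check.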
